A study of Mus musculus with 3 samples.

Results

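The genes of the respiratory chain that are encoded in the nucleus were examined in B cells of the spleen from WT mice and from a pair of models that overexpress human *BCL2*, named 3′RR-*BCL2* and Igκ-*BCL2*. Members were chosen by symbol, as all genes whose names begin with Nduf, Uqcr, Cox4i, Cox5, Cox6, Cox7, Cox8 or Atp5, together with *Sdha*, *Sdhb*, *Sdhc*, *Sdhd* and *Cycs*. This gave 95 of the 32285 gene identifiers measured. They comprised 39 genes grouped with complex I, 8 assembly factors of complex I (the Ndufaf genes), 4 of complex II, 8 of complex III, cytochrome c itself, 18 of complex IV and 17 of complex V. *Ndufa4* is counted with complex I by its symbol, although its product is assigned to complex IV. No expression value was used to choose them.

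All mice were of a mixed B6/129 background and had received 1 intraperitoneal injection of sheep red blood cells (SRBCs) 10 days earlier, which induces germinal centers (GCs). The 3′RR-*BCL2* mice carried a human *BCL2* cassette with its own P1 and P2 promoters as a randomly integrated transgene, driven by the core regulatory region 3′ of the immunoglobulin heavy chain locus. The Igκ-*BCL2* mice carried the same cassette as a knock-in that replaces the Jκ segments of the κ light chain locus. Both alleles are B-lineage models, and WT mice carried neither. There was 1 droplet library per genotype, so no test between genotypes was made, and age, sex and the number of mice behind each library are not given in the sources used here. Hemizygous mice of both models are described in the study, which does not repeat this for the libraries. The methods describe magnetic negative selection of B cells for all 3, while in the labels the cell type is sorted B cells only for the WT library and whole tissue for both *BCL2* libraries.

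The respiratory chain passes electrons from NADH (complex I) and succinate (complex II, which is also an enzyme of the tricarboxylic acid cycle) to ubiquinone, then through complex III, cytochrome c and complex IV to oxygen. The proton gradient built by complexes I, III and IV drives the ATP synthase, complex V. Complex II is wholly nuclear-encoded, whereas each of the others combines nuclear-encoded subunits with a few core subunits encoded in mitochondrial DNA. Lymphocytes that leave the resting state enlarge their mitochondria as they grow and divide, and GC B cells are known for their use of oxidative phosphorylation.

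From here on, 3 values given side by side are those of WT, then 3′RR-*BCL2*, then Igκ-*BCL2*, unless named. The libraries held 11269, 7579 and 7034 barcodes with 62777659, 45539172 and 37433924 unique molecular identifiers (UMIs, each standing for 1 captured RNA molecule), and 9932, 6561 and 6242 B-lineage cells remained after filtering. Between 15 and 24 barcodes were shared by each pair of libraries. Stages were set per cell by the number of marker genes with a UMI after thinning to 2000 UMIs, none of which is a respiratory chain gene, so that each stage is a range of marker counts rather than a sorted cell type. There were 7902, 4568 and 4825 resting cells, 25, 72 and 14 dividing GC cells, 62, 536 and 271 non-dividing GC cells, and 560, 263 and 176 activated MYC-high cells (markers such as *Myc* and *Srm*). Of GC cells, 32, 290 and 151 lay at the minimum of 2 markers, and 262, 574 and 412 cells lay 1 marker below it. Median depth differed among these stages, from 4705 to 5095 UMIs per cell in resting cells to between 9116.5 and 9710.5 in dividing GC cells. In resting, GC and activated cells, T cell markers summed to at most 1.87 UMIs per 1000000, markers of macrophages and other myeloid cells to between 113 and 293, and erythroid genes to between 6.48 and 77.3, highest in dividing GC cells of Igκ-*BCL2*. Cells with 2 or more UMIs of the T cell list (*Cd3* genes) or of *C1q* genes, part of the myeloid list, had been left out. That filter limited these values in advance. The part of T, myeloid and erythroid cells and of depth in the results was not tested. Results among cells of 5000 to 10000 UMIs are given below, a window that narrows the difference in depth without removing it.

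Levels are given as UMIs of a gene summed over the cells of a stage per 1000000 UMIs of those cells (counts per 1000000, CPM). The assay counts the 3′ end of each transcript, so that a level does not scale with transcript length. Many of these short genes have processed pseudogenes. How reads shared with them were assigned was not examined, so that the level of such a gene is uncertain in absolute terms. Stages were compared with edgeR's quasi-likelihood test on these sums with Benjamini-Hochberg adjustment over all 9116 genes tested, with the library as a block. The 3 libraries, which differ in genotype, served as the replicates of a stage, and n = 3 below counts these libraries. All 24 sums of library and stage entered the same fit, so the spread behind each SE and p-value is shared by all stages. It is not estimated from the libraries of the named stage alone. This spread is the scatter left after the library block, and p-values measure it among these libraries only. Of the 95 members, 87 passed the filter on low counts. The other 8 were *Cox4i2*, *Cox7b2*, *Cox8b* and *Cox8c*, with 0 UMIs in all stages together (which allows up to 0.0249 CPM), *Ndufa4l2* with 2 UMIs, *Cox6a2* with 48, *Cox7a1* with 64 and *Cox6b2* with 122. In resting cells, the highest level of each complex was that of *Ndufb1-ps* (238, 286 and 260), *Sdha* (100.2, 89.8 and 93.0), *Uqcrh* (469, 469 and 420), *Cox8a* (452, 492 and 452, next to *Cox4i1* with 481, 468 and 441) and *Atp5e* (527, 565 and 512). The inhibitor of the ATP synthase, *Atp5if1*, was not analysed here.

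Promoters of 78 of the 95 genes were matched in RefSeq (GRCm38.p6), as 83 windows from 250 bases before to 50 bases after the start. They are shown for 4 genes on whose levels the results below turn, chosen after their values were seen: *Cycs*, which encodes the electron carrier cytochrome c, *Sdhb* and *Sdha*, the iron-sulfur and flavoprotein subunits of complex II, and *Ndufaf4*, an assembly factor of complex I. Capitals mark, on either strand, the letters GCATGCGC (the core of the site of the transcription factor NRF1), CCGGAAG (ETS factors such as GABP) and TGACGTCA (CREB).

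*Cycs*, chr6:50566520-50566819, minus strand: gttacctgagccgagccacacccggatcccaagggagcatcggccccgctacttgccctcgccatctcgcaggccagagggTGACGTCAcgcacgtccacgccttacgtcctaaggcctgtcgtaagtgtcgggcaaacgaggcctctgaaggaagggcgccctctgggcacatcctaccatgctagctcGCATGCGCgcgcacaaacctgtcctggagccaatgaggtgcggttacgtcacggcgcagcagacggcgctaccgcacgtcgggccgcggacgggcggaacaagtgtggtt
*Sdhb*, chr4:140961021-140961320, plus strand: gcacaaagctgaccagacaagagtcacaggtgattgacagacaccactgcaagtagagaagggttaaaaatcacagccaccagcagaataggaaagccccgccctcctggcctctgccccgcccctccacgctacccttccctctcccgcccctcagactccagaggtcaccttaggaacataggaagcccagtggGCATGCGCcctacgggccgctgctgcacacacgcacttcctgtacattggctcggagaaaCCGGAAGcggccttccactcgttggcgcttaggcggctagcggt
*Sdha*, chr13:74350191-74350490, minus strand: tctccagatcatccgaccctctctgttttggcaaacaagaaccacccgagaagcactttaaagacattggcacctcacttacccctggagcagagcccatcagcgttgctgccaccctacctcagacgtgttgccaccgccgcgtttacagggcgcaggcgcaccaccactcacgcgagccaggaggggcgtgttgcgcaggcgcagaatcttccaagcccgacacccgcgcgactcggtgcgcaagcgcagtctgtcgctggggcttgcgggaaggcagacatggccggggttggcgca
*Ndufaf4*, chr4:24897833-24898132, plus strand: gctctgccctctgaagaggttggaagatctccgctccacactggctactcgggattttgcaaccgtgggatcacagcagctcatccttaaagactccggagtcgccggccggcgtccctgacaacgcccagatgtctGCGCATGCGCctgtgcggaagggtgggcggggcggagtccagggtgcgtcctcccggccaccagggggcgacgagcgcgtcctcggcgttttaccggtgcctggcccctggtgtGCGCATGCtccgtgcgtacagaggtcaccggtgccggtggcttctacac

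The window of *Cycs* held the NRF1 and CREB letters and that of *Sdhb* the NRF1 and ETS letters. That of *Ndufaf4* held the NRF1 letters at 2 places, the first of which reads as a match on both strands that overlap, and that of *Sdha* held none of the letters searched. Over the member windows, NRF1 letters were present in 15.7% against 2.71% of all 32851 windows in the table, and ETS letters in 22.9% against 8.86%. The letters ATGGCGG (YY1) were present in 15.7% against 4.05%, TGACGTCA in 6.02% against 1.79%, and CACGTG (the E-box of MYC and related factors) in 8.43% against 7.15%. These are matches of letters and describe the windows only.

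The summed level of the 95 genes was higher in GC and activated cells than in resting cells of every library. In resting cells it was 11731, 12206 and 11499 CPM. In dividing GC cells it was 21025, 20333 and 19430, a log2 difference from resting cells of the same library of 0.84, 0.74 and 0.76. Non-dividing GC cells held 17605, 15458 and 14295, with differences of 0.59, 0.34 and 0.31. Activated MYC-high cells held 14432, 14718 and 14780, with differences of 0.30, 0.27 and 0.36. The ranges of these 4 stages overlapped only between non-dividing GC and activated cells. Counted per cell after thinning to 2000 UMIs, the median number of respiratory chain UMIs was 23, 23 and 22 in resting cells and 40, 35 and 36 in dividing GC cells. Complexes I, IV and V took most of these UMIs, with 29.6%, 25.4% and 31.4% of the sum in resting cells of WT.

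**Figure D1:**
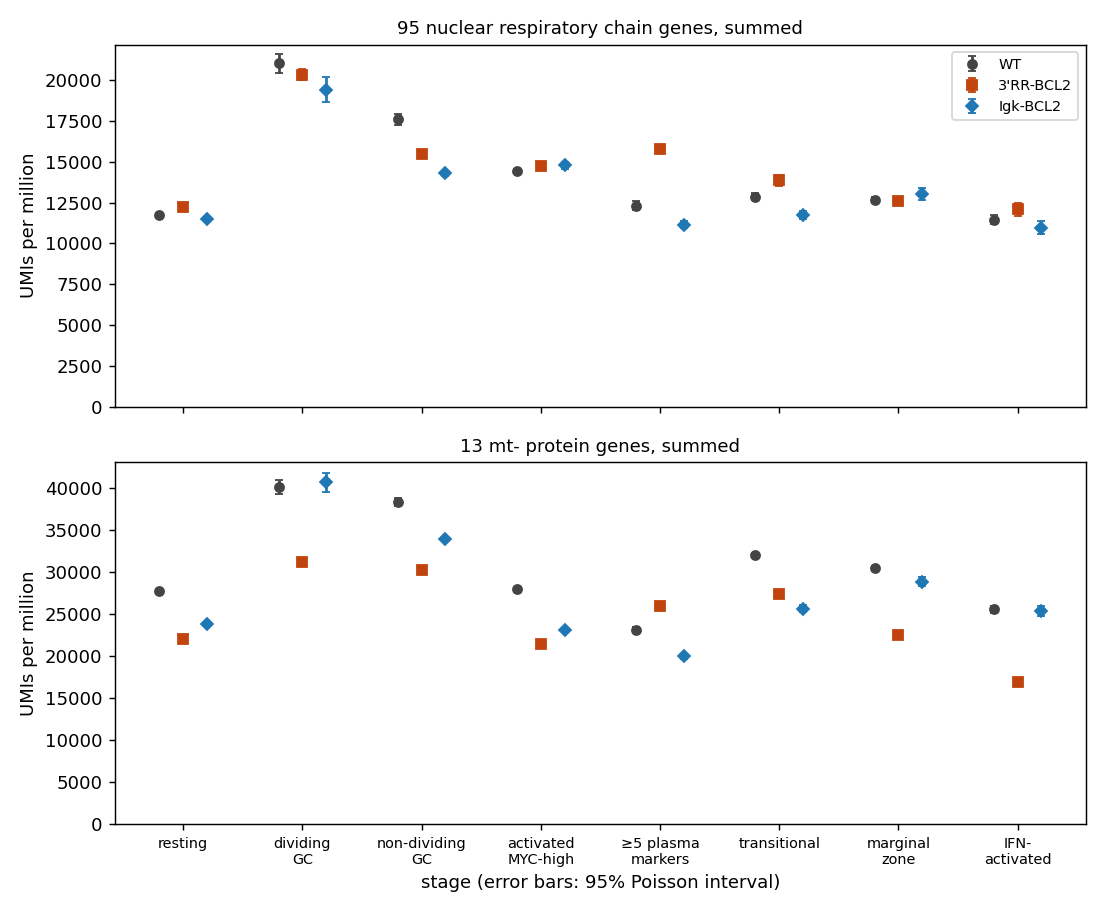
Summed level of the 95 nuclear-encoded respiratory chain genes and of the 13 protein genes of mitochondrial DNA (CPM, vertical axes) by marker-defined B cell stage (horizontal axes), with 1 point per library and exact Poisson intervals for counting error only. The nuclear-encoded sum was highest in dividing GC cells of each library (19430 to 21025) and raised in activated cells, where the mitochondrial sum (21399 to 28033) stayed near that of resting cells (22007 to 27703).

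In dividing GC cells, 66 of the 87 members tested rose over resting cells and 0 fell, where 23.0% of all 9116 genes rose and 20.5% fell. The median log2 difference of members was 0.77, against -0.04 for all genes, and 69 members were above resting cells in all 3 libraries. At an unadjusted p under 0.05 the lower count was also 0, and it was 0 with DESeq2. All 17 members of complex V rose, as did 32 of 38 of complex I, 10 of 11 of complex IV and 5 of 8 of complex III. Of complex II 1 of 4 rose, and of the Ndufaf assembly factors 0 of 8. Above 0 were 3 of these 4 genes (median log2 difference 0.31) and 7 of these 8 (0.29). The Ndufaf genes stood at only 6.49 to 54.0 CPM over all stages, so one that did not pass may still differ. Within complex V, the 5 genes of the soluble F1 part all rose, and within complex I 4 of the 7 nuclear-encoded core genes and 28 of the 31 other subunits tested did, lists that were drawn up after values were seen.

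*Ndufb1-ps*, the mouse gene named for the complex I subunit NDUFB1, stood at 238, 286 and 260 CPM in resting cells and at 685, 784 and 912 in dividing GC cells. The groups did not overlap, and the log2 difference was 1.56 ± 0.12 (SE, n = 3, adjusted p = 2.69e-12, edgeR), the largest among members in this stage. GENCODE annotates this locus (GRCm38, chr12:101968090-101977068) as a noncoding RNA of a bidirectional promoter, while the RefSeq gene matched to it has the symbol *Ndufb1*. *Sdhb* (chr4:140961203-140979193) stood at 67.7, 69.4 and 70.1 in resting cells and at 187, 213 and 170 in dividing GC cells. All dividing GC values lay above all resting ones, with a log2 difference of 1.51 ± 0.16 (SE, n = 3, adjusted p = 1.11e-09, edgeR). *Ndufv1*, the subunit of complex I that binds NADH, went from 27.9, 26.8 and 26.6 to 74.1, 63.0 and 85.0, a difference of 1.36 ± 0.21 (SE, n = 3, adjusted p = 3.13e-06, edgeR). *Atp5g3*, which encodes the rotor ring subunit c of complex V, went from 114, 115 and 108 to 270, 298 and 255, a difference of 1.29 ± 0.14 (SE, n = 3, adjusted p = 5.27e-09, edgeR). *Uqcr10*, a small subunit of complex III, went from 113, 119 and 112 to 310, 292 and 224, a difference of 1.27 ± 0.15 (SE, n = 3, adjusted p = 1.78e-08, edgeR). For these 4 genes too the dividing GC and resting values did not overlap.

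Members of the same complex differed among themselves. In complex III, *Uqcrh* (log2 difference 0.06), *Uqcrfs1*, the Rieske iron-sulfur protein (0.03), and *Uqcrb* (-0.08) did not pass the test beside *Uqcr10*. In complex IV *Cox7c* (0.13) did not, and in complex I *Ndufa6* (-0.13), *Ndufs3* (0.15) and *Ndufs7* (0.15) did not. Depth moved with this comparison, since dividing GC cells held more UMIs than resting cells. Among cells of 5000 to 10000 UMIs, which left 6, 17 and 6 dividing GC cells, 37 of 83 members tested rose. Over all genes 833 of 6174 rose there. Median depth still differed in that window, at 8377, 8123 and 8468 UMIs in dividing GC cells against 6209, 6191 and 6181 in resting cells. In those cells *Ndufb1-ps* (1.41 ± 0.17, SE, n = 3, adjusted p = 8.97e-10, edgeR) and *Sdhb* (1.73 ± 0.25, SE, n = 3, adjusted p = 1.97e-07, edgeR) still rose.

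**Figure D2:**
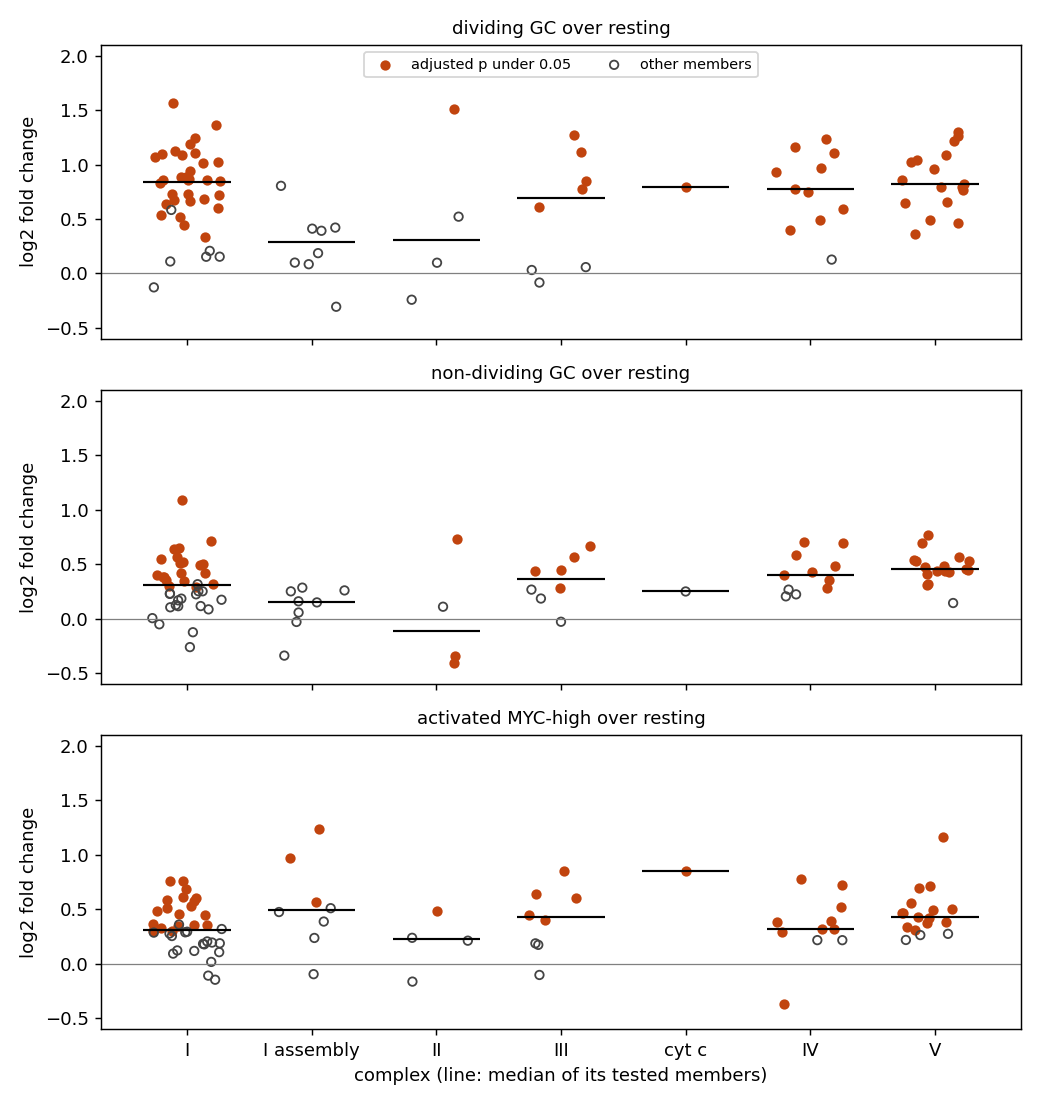
Log2 difference of each tested member from resting cells (vertical axis) in dividing GC, non-dividing GC and activated MYC-high cells, grouped by complex (horizontal axis), with 1 point per gene. All 17 members of complex V lay above 0 in each of these stages, while complex II was split between *Sdhb* above 0 and *Sdha* and *Sdhc* below 0 in non-dividing GC cells.

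In non-dividing GC cells, 50 of 87 members rose and 2 fell, where 22.2% of all genes rose and 16.9% fell. The median log2 difference of members was 0.32, against 0.03 for all genes. By complex, 16 of 17 members of complex V rose, 20 of 38 of complex I, 8 of 11 of complex IV and 5 of 8 of complex III, but 0 of 8 Ndufaf assembly factors. Of these 8 genes of low level, 6 lay above 0 (median log2 difference 0.15). The count depended on WT, which has the fewest GC cells: without the WT library 27 of 87 members rose, where 1577 of 9213 genes did. Among cells of 5000 to 10000 UMIs 25 of 83 members rose, where 1084 of 6174 genes did. *Ndufb1-ps* stood at 506, 581 and 560 CPM, a log2 difference of 1.09 ± 0.11 from resting cells (SE, n = 3, adjusted p = 2.48e-09, edgeR). *Atp5a1*, the α subunit of the F1 part, went from 251, 245 and 257 to 528, 369 and 396, a difference of 0.77 ± 0.12 (SE, n = 3, adjusted p = 4.46e-06, edgeR). *Cox6c*, a subunit of complex IV, went from 296, 306 and 279 to 548, 474 and 409, a difference of 0.70 ± 0.13 (SE, n = 3, adjusted p = 3.89e-05, edgeR). In these 3 genes all GC values lay above all resting ones. *Ndufs8*, an iron-sulfur subunit of complex I, also rose (0.72 ± 0.11, SE, n = 3, adjusted p = 4.22e-06, edgeR).

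The 4 genes of complex II did not move together. *Sdhb* was higher in non-dividing GC cells, at 139, 107 and 109 (log2 difference 0.73 ± 0.12, SE, n = 3, adjusted p = 9.44e-06, edgeR). *Sdha* (chr13:74322254-74350280), whose product binds that of *Sdhb* to form the catalytic head of the enzyme, fell from 100.2, 89.8 and 93.0 to 62.7, 71.8 and 76.9. The groups did not overlap, with a difference of -0.34 ± 0.11 (SE, n = 3, adjusted p = 0.0139, edgeR). In dividing GC cells *Sdha* stood at 118, 98.7 and 77.3, overlapping resting cells (0.10, adjusted p = 0.652, edgeR). *Sdhc* (chr1:171127165-171150603), a membrane anchor of the complex, stood at 28.7, 25.5 and 29.1 in resting cells and at 11.5, 20.9 and 22.8 in non-dividing GC cells, from 7, 80 and 46 UMIs there. Its difference of -0.41 ± 0.16 (SE, n = 3, adjusted p = 0.0461, edgeR) passed the threshold narrowly. *Sdhc* lost its call without any one of the libraries, and *Sdha* lost its call without WT (-0.29) or without 3′RR-*BCL2* (-0.37). *Sdhd* (chr9:50596357-50603812), the other membrane anchor, stood at 38.1, 39.0 and 38.1 in resting cells and 61.0, 50.1 and 69.5 in dividing GC cells, a difference of 0.52 that did not pass (adjusted p = 0.0613, edgeR).

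*Cycs* (chr6:50562563-50566538) stood at 57.1, 72.5 and 70.3 CPM in resting cells. In activated MYC-high cells it stood at 101, 123 and 126, above all resting values (log2 difference 0.85 ± 0.11, SE, n = 3, adjusted p = 8.51e-07, edgeR). In dividing GC cells it stood at 105, 117 and 147 (0.79 ± 0.18, SE, n = 3, adjusted p = 0.000444, edgeR). This second difference was not seen among cells of 5000 to 10000 UMIs (-0.09, adjusted p = 0.896, edgeR). Only 6, 17 and 6 dividing GC cells lay in that window, so a difference there can be missed. The difference of activated cells (290, 135 and 98 cells there) remained 0.80. In non-dividing GC cells it stood at 97.3, 80.1 and 72.4, a difference of 0.25 ± 0.12 that did not pass (SE, n = 3, adjusted p = 0.110, edgeR).

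**Figure D3:**
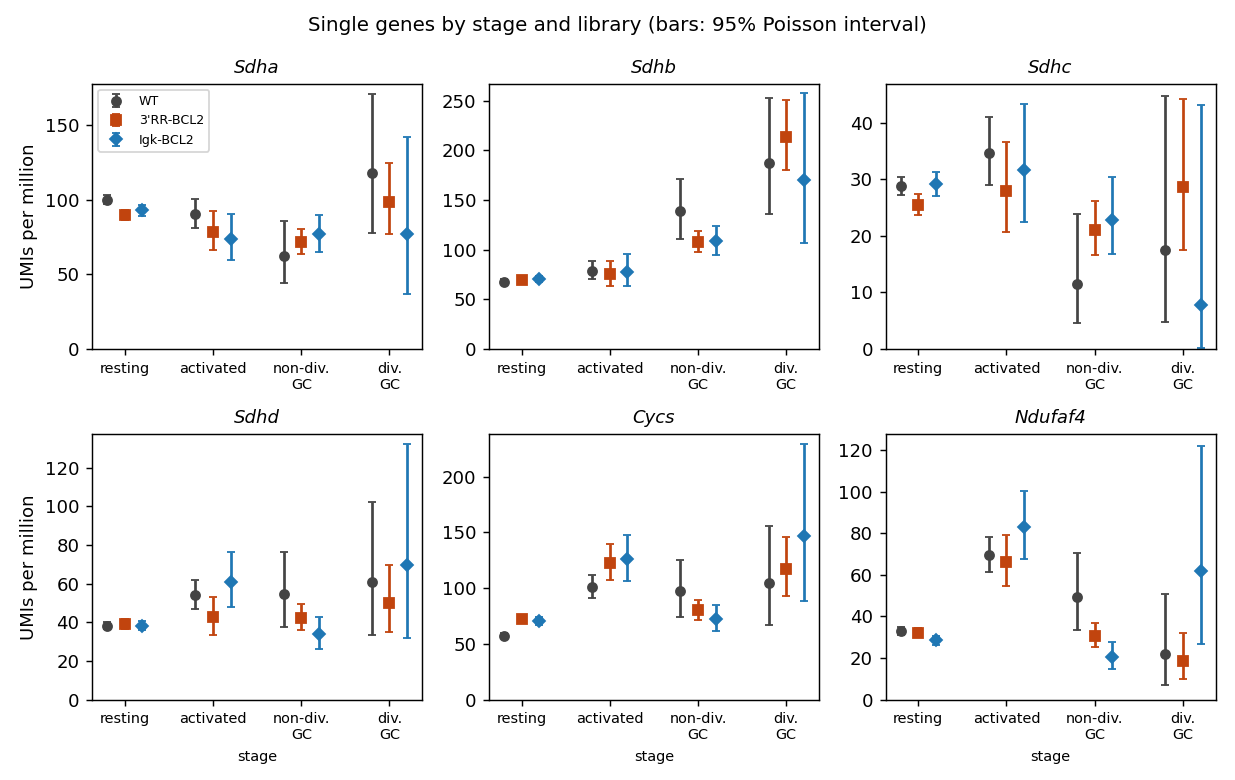
Levels of *Sdha*, *Sdhb*, *Sdhc*, *Sdhd*, *Cycs* and *Ndufaf4* (CPM, vertical axes) by stage and library, with exact Poisson intervals for counting error only. *Sdhb* was highest in dividing GC cells (170 to 213), whereas *Ndufaf4* was higher in activated MYC-high cells (66.0 to 82.7) than in resting cells (28.5 to 32.9) of each library.

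In activated MYC-high cells, 51 of 87 members rose and 1 fell, where 14.3% of all genes rose and 8.41% fell. The median log2 difference of members was 0.36, against -0.02 for all genes, and 74 members were above resting cells in all 3 libraries. By complex, 14 of 17 members of complex V rose, 19 of 38 of complex I, 8 of 11 of complex IV, 5 of 8 of complex III and 3 of 8 Ndufaf assembly factors. Without the Igκ-*BCL2* library 24 of 86 members rose, where 800 of 9195 genes did. Without WT 35 of 87 rose, where 817 of 9213 genes did. Without 3′RR-*BCL2* 37 of 87 rose, where 956 of 8981 genes did. The stage contrasts share the same resting cells, so their lists of called members are not independent of each other.

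*Ndufaf4* (chr4:24898083-24905001) led these cells. It stood at 32.9, 32.2 and 28.5 CPM in resting cells and at 69.4, 66.0 and 82.7 in activated cells, a log2 difference of 1.23 ± 0.15 (SE, n = 3, adjusted p = 2.51e-07, edgeR). Its values of 49.5, 30.6 and 20.3 in non-dividing GC cells lay on both sides of resting cells, and in dividing GC cells its 21.8, 18.6 and 61.8 rest on 5, 13 and 8 UMIs. *Ndufaf6*, another assembly factor of complex I, rose by 0.98 ± 0.24 (SE, n = 3, adjusted p = 0.00236, edgeR). *Uqcrq*, a small subunit of complex III, went from 129, 134 and 127 to 219, 225 and 239, a difference of 0.85 ± 0.13 (SE, n = 3, adjusted p = 1.12e-05, edgeR). *Sdhd* rose to 54.2, 42.6 and 60.8 (0.49 ± 0.13, SE, n = 3, adjusted p = 0.00425, edgeR). Of the 2 members with the largest differences in dividing GC cells, *Ndufb1-ps* stood at 250, 270 and 240 here (log2 difference 0.02, adjusted p = 0.939, edgeR) and *Sdhb* at 78.7, 75.3 and 77.9 (0.21, adjusted p = 0.226, edgeR), and neither passed the test. *Atp5g3* (0.72), *Uqcr10* (0.64), *Cox6c* (0.52) and *Atp5a1* (0.43), also named for GC cells, rose in activated cells as well.

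Several subunits have paralogs, of which some are restricted to particular tissues such as muscle, lung or testis. In these B cells the widespread forms *Cox4i1*, *Cox7b* and *Cox8a* took nearly all UMIs of their families. *Cox6a1* did so as well, with 1 exception. Among Igκ-*BCL2* cells with at least 5 plasma cell markers, *Cox6a2*, known as the form of heart and muscle, held 32 of 200 family UMIs (16%, exact Clopper-Pearson interval 11.2% to 21.8%), against 1 of 105 for WT and 2 of 336 for 3′RR-*BCL2* in cells of that class. With 1 library per group this difference has no test. Subunit c of complex V is made as the same mature protein from *Atp5g1*, *Atp5g2* and *Atp5g3*. *Atp5g2* took 61.8%, 61.6% and 61.6% of the family in resting cells and *Atp5g1* (chr11:96068852-96075670) 19.5%, 19.6% and 18.96%. In activated MYC-high cells the share of *Atp5g1* was 27.5%, 25.9% and 28.3%, above every resting value. Its level went from 119, 120 and 106 to 249, 232 and 267 CPM (log2 difference 1.16 ± 0.16, SE, n = 3, adjusted p = 1.45e-06, edgeR). Its share in non-dividing GC cells was 22.03%, 17.3% and 17.4%, on both sides of resting cells.

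In the Cox7a family, *Cox7a2* took 33.1%, 34.3% and 34.0% of UMIs in resting cells and 43.4%, 48.5% and 47.1% in activated cells. *Cox7a2l* (chr17:83501918-83517330) was the member that fell there, from 362, 369 and 352 to 275, 259 and 273 (log2 difference -0.37 ± 0.12, SE, n = 3, adjusted p = 0.0244, edgeR). Its groups did not overlap, although the call was lost when any one library was left out (-0.33 to -0.41). *Cox7a2l* stood at 435, 516 and 536 in non-dividing GC cells, above all resting values. *Cox6b2* (chr7:4751792-4753094), known as the testis form of *Cox6b1*, took 0.405%, 0.180% and 0.504% of its family in resting cells and 1.36%, 1.38% and 1.95% in non-dividing GC cells. The latter shares rest on 3, 17 and 11 UMIs, and this gene was not tested.

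**Figure D4:**
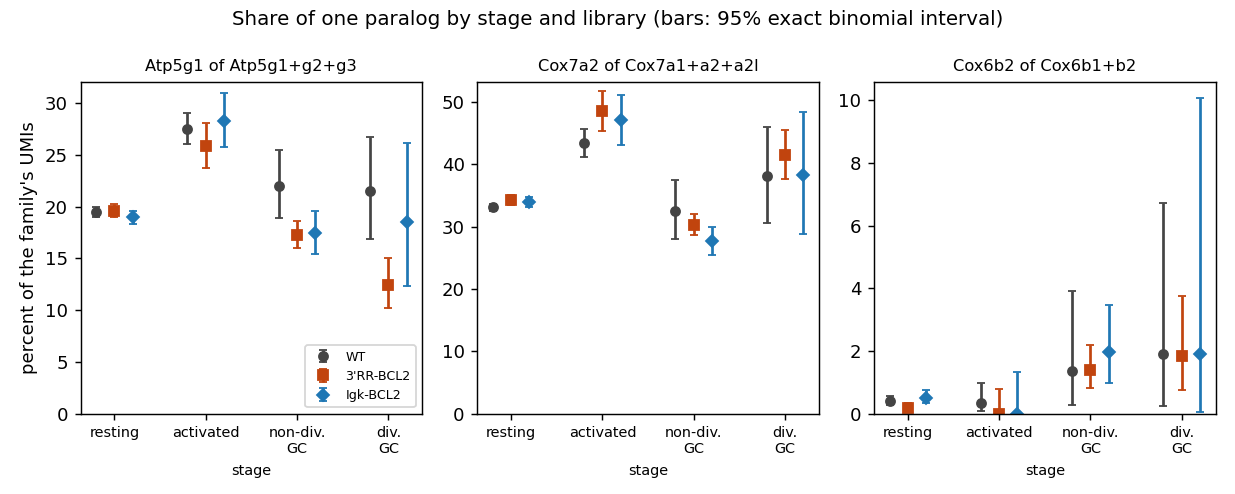
Share of family UMIs (%, vertical axes) taken by *Atp5g1*, *Cox7a2* and *Cox6b2* by stage and library, with exact Clopper-Pearson intervals for counting error only. The shares of *Atp5g1* (25.9% to 28.3%) and *Cox7a2* (43.4% to 48.5%) in activated MYC-high cells lay above those in resting cells of every library.

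The other stages were smaller or closer to resting cells. Marginal zone cells had 4 members that rose and 0 that fell, where 5.55% of all genes rose and 3.72% fell. These were *Ndufaf4* (log2 difference 0.66 ± 0.21, SE, n = 3, adjusted p = 0.0380, edgeR), *Atp5g2* (0.47 ± 0.12, adjusted p = 0.00884), *Atp5mpl* (0.42, adjusted p = 0.0155) and *Atp5j2* (0.41, adjusted p = 0.0229). *Atp5g2* stood at 452, 486 and 491 there. Scaling to total UMIs gave 0 member calls, where 312 of 9116 genes rose and 470 fell. Cells of 5000 to 10000 UMIs also gave 0, where 201 of 6174 genes rose and 175 fell. Without WT 1 member rose, where 237 of 9213 genes did. Without 3′RR-*BCL2* 2 rose, where 257 of 8981 genes did, and without Igκ-*BCL2* 0, where 339 of 9195 genes did. Transitional cells had 0 members called in either direction with edgeR, where 1.65% of all genes rose and 1.49% fell, and IFN-activated cells 0 in either direction, where 3.02% rose and 0.0987% fell. At an unadjusted p under 0.05, 5 members were higher and 0 lower in transitional cells, 1 higher and 1 lower in IFN-activated cells, and 18 higher and 0 lower in marginal zone cells. With DESeq2, 0 members were called in transitional cells, where 176 of 9116 genes rose and 173 fell. It called 0 members in IFN-activated cells, where 328 genes rose and 4 fell. In marginal zone cells 8 members rose and 0 fell with it, where 516 genes rose and 355 fell.

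Cells with at least 5 of 15 plasma cell markers numbered 84, 126 and 121. Their label goes against the data for most of them, since the 79, 116 and 105 cells with 5 or 6 markers had a median immunoglobulin share of 1.67%, 1.51% and 1.63%, and only 5, 10 and 16 cells with 7 or more markers reached 30.9%, 32.4% and 23.4%. Among the cells with at least 5 markers, which are therefore called by this rule, 43 members rose and 0 fell (0 also at an unadjusted p under 0.05 and with DESeq2), where 13.2% of all genes rose and 6.44% fell with edgeR. In all 3 libraries 25 members were above resting cells. Cells that also met the GC minimum were counted in this class. With a minimum of 7 plasma cell markers, dividing GC cells numbered 25, 80 and 15 in place of 25, 72 and 14. Non-dividing GC cells then numbered 64, 574 and 283 in place of 62, 536 and 271. Other markers moved with this class, above all in the 3′RR-*BCL2* library, and their part was not tested. Those of GC cells summed to 203, 1166 and 369 CPM here, against 14.9, 66.1 and 43.7 in resting cells, and those of proliferation to 475, 1449 and 176, against 51.7, 68.5 and 52.3. The largest differences were those of *Ndufa1* (0.83), *Uqcr11* (0.81), *Uqcrq* (0.72), *Ndufv3* (0.70) and *Ndufs8* (0.67). The count fell to 13 when sums were scaled to total UMIs, which moved the median of all genes by -0.20, to 7 without 3′RR-*BCL2*, to 21 without Igκ-*BCL2*, and to 0 among cells of 5000 to 10000 UMIs. Over all genes, 416 of 8981 rose without 3′RR-*BCL2*, 888 of 9195 without Igκ-*BCL2* and 146 of 6174 in that depth window. The split of all genes was 1204 higher and 587 lower with edgeR's scaling (TMM) and 762 and 1626 with total UMIs. The median of members minus that of all genes was 0.35 in both. With immunoglobulin genes taken out of the total, the cells with 7 or more markers held 19929, 20521 and 15618 CPM of respiratory chain genes, against 11920, 12419 and 11688 in resting cells. With all UMIs as the total they held 14226, 11191 and 8717, against 11731, 12206 and 11499, so that the direction turned with the total in both *BCL2* libraries. The 13 protein genes of mitochondrial DNA summed to 20358, 11278 and 13568 CPM of all UMIs in these cells, below the 27703, 22007 and 23827 of resting cells. Immunoglobulin genes are part of that total, and the mitochondrial sum was not taken without them. Whether its direction also turns with the total was therefore not tested.

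Mitochondrial DNA encodes 13 core subunits of complexes I, III, IV and V. Of these 13 genes 11 rose in each of the GC stages, where 23.0% (dividing) and 22.2% (non-dividing) of all genes rose. The summed level of the 13 genes in resting cells was 27703, 22007 and 23827 CPM. It was 40105, 31202 and 40652 in dividing GC cells and 38318, 30183 and 33893 in non-dividing GC cells. The median log2 difference was 0.57 and 0.44. Among cells of 5000 to 10000 UMIs 8 and 10 of the 13 rose, where 833 and 1084 of 6174 genes did. With 1 more marker per class only 5 and 4 rose, where 1289 and 1305 of 6895 genes did. *mt-Co1*, the catalytic subunit of complex IV, went from 4721, 3974 and 4070 to 6575, 6302 and 8251 in dividing GC cells. In activated MYC-high cells 0 of 13 were called in either direction with edgeR, where 14.3% of all genes rose and 8.41% fell. The count was also 0 at an unadjusted p under 0.05 and 0 with DESeq2. The median difference was 0.03 and the sums were 28033, 21399 and 23120. Nuclear-encoded members and mitochondrial genes were thus both called in GC cells, and nuclear-encoded members alone were called in activated cells, although the difference between the sets was not tested. Cells with over 8% mitochondrial UMIs had been left out, which limits how far the mitochondrial level can vary. The looser filter allowed up to 15%, and also dropped the upper limits on genes and UMIs and the ribosomal minimum. With it 10 and 12 of the 13 rose in GC cells, where 2970 and 1883 of 9371 genes did. In activated cells 0 rose with it. In marginal zone cells 0 of the 13 were called with edgeR and 1 rose with DESeq2. All 13 had a log2 difference above 0 there (median 0.26), and 11 were higher at an unadjusted p under 0.05 (edgeR).

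Other genes of the pathway were taken from fixed lists. Of 78 mitochondrial ribosomal proteins, which translate the mitochondrial mRNAs, 36 rose and 1 fell (*Mrps35*, -0.93) in dividing GC cells, 28 rose and 0 fell in non-dividing GC cells, and 37 rose and 0 fell in activated cells. Over all genes 23.0%, 22.2% and 14.3% rose and 20.5%, 16.9% and 8.41% fell in these 3 stages. Of 13 enzymes of the tricarboxylic acid cycle outside complex II, 4 rose and 1 fell in non-dividing GC cells, 4 rose and 0 fell in activated cells, and 6 rose and 0 fell in dividing GC cells, among them citrate synthase *Cs* (1.01 ± 0.20, SE, n = 3, adjusted p = 9.95e-05, edgeR) and fumarase *Fh1* (1.18 ± 0.19, SE, n = 3, adjusted p = 4.86e-06, edgeR). Of 32 tested assembly factors outside the Nduf names, 5 rose and 2 fell in dividing GC cells, 3 rose and 2 fell in non-dividing GC cells, and 3 rose and 0 fell in activated cells, each a smaller share than over all genes. *Uqcc2*, an assembly factor of complex III, rose in all 3 stages, by 1.54, 0.92 and 1.15. *Sdhaf1*, which helps to insert iron-sulfur clusters into the SDHB protein, fell in dividing GC cells (-1.81 ± 0.34, SE, n = 3, adjusted p = 4.96e-05, edgeR) and non-dividing GC cells (-1.35 ± 0.17, SE, n = 3, adjusted p = 9.40e-08, edgeR), in which *Sdhb* itself rose. In activated cells *Sdhaf1* rose (0.73 ± 0.13, SE, n = 3, adjusted p = 5.52e-05, edgeR). *Sdhaf2*, which helps to attach the flavin to the SDHA protein, rose in dividing and non-dividing GC cells, by 0.82 and 0.77.

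Of 11 tested regulators of mitochondrial biogenesis, 2 rose and 1 fell in dividing GC cells, 0 rose and 3 fell in non-dividing GC cells, and 1 rose in activated cells. Apart from the 3 that fell, these shares were below those over all genes. The member that rose in activated cells was *Pprc1*, a coactivator related to PGC-1 (1.39 ± 0.16, SE, n = 3, adjusted p = 7.18e-08, edgeR), which fell in non-dividing GC cells (-0.69, adjusted p = 0.0170, edgeR). The transcription factor gene *Nrf1* did not pass the test in these 3 stages (-0.17 in each). *Tfam*, a factor that packages and transcribes mitochondrial DNA, fell in non-dividing GC cells (-0.43 ± 0.12, SE, n = 3, adjusted p = 0.00558, edgeR). *Ppargc1b*, which encodes the coactivator PGC-1β, fell in dividing (-1.95) and non-dividing (-0.70) GC cells. *Gabpa*, a subunit of the ETS factor GABP, rose in dividing GC cells (0.73 ± 0.23, SE, n = 3, adjusted p = 0.0102, edgeR), as did *Yy1* (0.41).

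Between genotypes, each value rests on 1 library per genotype and intervals are exact 95% Poisson intervals that cover counting error only. In resting cells the summed level differed little from WT, with a log2 ratio of 0.06 (0.05 to 0.06) for 3′RR-*BCL2* and -0.03 (-0.04 to -0.02) for Igκ-*BCL2*. Counting genes over 25% higher or over 20% lower with an interval that excludes equality, 1 of 89 members was higher and 0 lower in 3′RR-*BCL2*, where 4.96% of all genes were higher and 8.16% lower. In Igκ-*BCL2* 1 of 89 was higher and 0 lower, where 12.2% of all genes were higher and 7.79% lower. The member higher in 3′RR-*BCL2* was *Cycs*, with a ratio of 0.34 (0.26 to 0.43), and its ratio in Igκ-*BCL2* was 0.30 (0.21 to 0.39). The member higher in Igκ-*BCL2* was *Ndufaf5*, at 7.49 against 5.51 CPM, a ratio of 0.44 (0.16 to 0.72). Smaller differences in Igκ-*BCL2* included *Ndufa3* (0.29), *Cox5a* (-0.25) and *Atp5f1* (-0.23), and in 3′RR-*BCL2* *Ndufb1-ps* (0.27) and *Sdha* (-0.16).

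These libraries also differed in other respects that move with genotype. A list of heat shock genes summed to 1450, 4463 and 6816 CPM in resting cells. *Xist*, which is expressed from the inactive X chromosome, stood at 0.159, 1684 and 0.117, while the 3 X-linked members differed little, with *Ndufa1* at 96.0, 112 and 106, *Ndufb11* at 166, 172 and 157 and *Cox7b* at 166, 173 and 149. For 3′RR-*BCL2*, genotype cannot be told apart from sex or from the difference in heat shock genes. WT and Igκ-*BCL2* were alike in their low *Xist*. For Igκ-*BCL2*, genotype cannot be told apart from the difference in heat shock genes. Whether sample handling lies behind that difference was not tested.

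In non-dividing GC cells the summed level was lower than in WT, with a log2 ratio of -0.19 (-0.22 to -0.16) for 3′RR-*BCL2* and -0.30 (-0.33 to -0.27) for Igκ-*BCL2*. By the same rule, 28 of 87 members were lower and 0 higher in 3′RR-*BCL2*, where 8.17% of all genes were lower and 5.57% higher. In Igκ-*BCL2* 36 of 84 were lower and 1 higher, where 9.48% of all genes were lower and 9.42% higher. The median of members was -0.21 and -0.34, against -0.01 and 0.04 for all genes. *Atp5f1*, a subunit of the stalk of complex V, stood at 332, 194 and 178 CPM, ratios of -0.77 (-0.998 to -0.54) and -0.90 (-1.15 to -0.64). *Cox5a*, a subunit of complex IV, stood at 244, 146 and 120, ratios of -0.74 (-1.004 to -0.47) and -1.03 (-1.33 to -0.72). *Atp5g1* stood at 233, 140 and 116, ratios of -0.73 (-1.001 to -0.45) and -1.003 (-1.31 to -0.69). *Cox7a2l* went the other way, with ratios of 0.25 (0.06 to 0.44) and 0.30 (0.10 to 0.50), and *Ndufa3* was the member counted as higher in Igκ-*BCL2* (0.41, 0.06 to 0.77).

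Depth, the heat shock list and markers of other stages moved with this difference. Heat shock genes summed to 2057, 2952 and 3606 CPM in these cells and markers of resting cells to 1258, 1524 and 1627. Markers of proliferation summed to 501, 288 and 280, and those of activated MYC-high cells to 749, 485 and 420. The part of these lists was not tested. The median depth was 10328.5 UMIs per cell in the 62 non-dividing GC cells of WT, against 6713.5 for 3′RR-*BCL2* and 7192 for Igκ-*BCL2*, and the respiratory chain level was higher in the deepest than in the shallowest cells of a library. In 3′RR-*BCL2* it went from 12406 CPM in GC cells of 2000 to 4000 UMIs to 16867 in those of 12000 to 20000. Resting cells of WT went from 10943 to 12502 over the same range. Among non-dividing GC cells of 5000 to 10000 UMIs (20, 250 and 145 cells), the log2 ratio of the sum was 0.04 (-0.02 to 0.11) for 3′RR-*BCL2* and -0.11 (-0.17 to -0.04) for Igκ-*BCL2*. Among those of 12000 to 20000 UMIs, WT stood at 18956 (22 cells), 3′RR-*BCL2* at 16867 (60 cells) and Igκ-*BCL2* at 15952 (26 cells). The lower level of the *BCL2* libraries was thus present in the deepest cells and not in 3′RR-*BCL2* cells of middle depth.

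**Figure D5:**
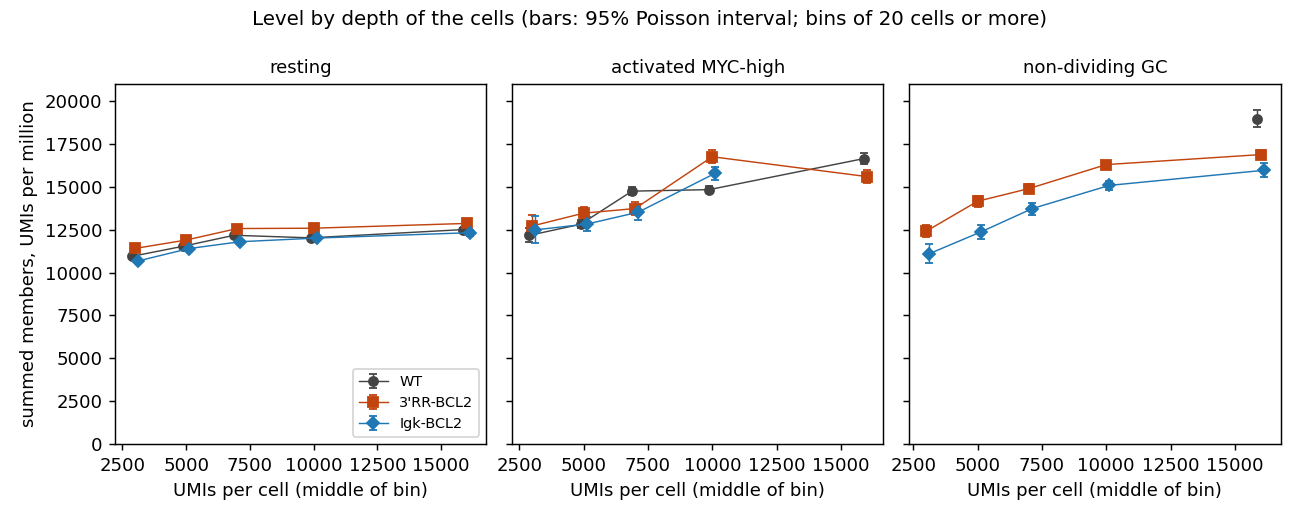
Summed level of the respiratory chain genes (CPM, vertical axis) in bins of UMIs per cell (horizontal axis) for resting, non-dividing GC and activated cells of each library, for bins of at least 20 cells, with exact Poisson intervals for counting error only. The level was higher in the deepest than in the shallowest bin, going from 10943 to 12502 in resting cells of WT and from 12406 to 16867 in non-dividing GC cells of 3′RR-*BCL2*.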

How the data were processed

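RNA of splenic B cells was measured in 3 libraries, 1 per genotype, with a 10x Genomics 3′ kit (v3.1). The authors deposited UMI counts as whole numbers, 1 matrix of genes by barcodes per library, from Cell Ranger 6.1.1 and, per the labels, the mm10 genome (hg38 is also named, without a role). Coordinates are those of GENCODE M21 (GRCm38), in which all 95 members were found.

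Following the filters stated in the study, a cell had to show 800 to 4500 genes, no more than 20000 UMIs, no more than 8% of them mitochondrial and no less than 10% from ribosomal protein genes. Cells in which *Cd3* or *C1q* genes had 2 or more UMIs were also left out. For cells with at least 5 plasma cell markers the upper limits and the ribosomal minimum were not applied. Cells under 2000 UMIs (178, 165 and 135) were left out, and no doublet caller was run. A cell that met several classes was placed with the plasma cell markers first, then in a GC class. Other cells that met more than 1 of the transitional, marginal zone, IFN-activated and activated MYC-high classes were left out. Besides the plasma cell markers, the marker minimums were 2 of 10 for GC cells, 3 of 12 proliferation genes for dividing GC cells, 2 of 8 for transitional, 2 of 6 for marginal zone, 3 of 11 for IFN-activated, 3 of 7 for activated MYC-high and 3 of 8 for resting cells. Counts were summed per library and stage (24 sums) and tested with edgeR 4.0.16 (R 4.3.3; TMM, filterByExpr, threshold 0.05, Benjamini-Hochberg over all genes tested). Between genotypes, ratios of UMIs per 1000000 were taken for genes that reached 20 UMIs in 1 of the libraries compared or both, and exact 95% intervals were attached. Python 3.11.15, numpy 2.4.6, scipy 1.17.1, pandas 2.3.3 and matplotlib 3.10.9 were used, and the scripts were tested on simulated data. The depth of a sum sets the precision of its values, and intervals cover counting error only.

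Members, lists and tests were chosen with earlier results of these data known. Genes named are the highest member of each complex in resting cells, up to 5 called members per stage and direction with the largest fold and at least 50 UMIs, up to 5 per genotype comparison and direction whose interval lies farthest from 1, the complex II genes, *Cycs*, paralogs with tissue-restricted forms and the mitochondrial genes. Members named for not passing the test and single genes of the pathway lists were chosen after their values were seen. Alternatives were scaling to total UMIs, DESeq2 1.42.0 size factors and its test, no filter on low counts, leaving out each library, no library block, classes at 1000 or 4000 UMIs, 1 more marker per class, looser limits on cells (500 genes or more, up to 15% mitochondrial) and totals without immunoglobulin, ribosomal protein and mitochondrial genes. The looser limits also dropped the upper limits on genes and UMIs and the ribosomal minimum. Dividing GC cells then numbered 56, 133 and 28 in place of 25, 72 and 14. Cells of 5000 to 10000 UMIs and a minimum of 7 plasma cell markers were alternatives chosen after seeing the data.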

Additional observations from a re-analysis of the deposited data

Results flagged for a closer look

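The summed level of the nuclear-encoded respiratory chain genes moved in different directions between libraries in 1 stage, and that of the 13 protein genes of mitochondrial DNA in 3. In cells with at least 5 plasma cell markers, the log2 difference of the nuclear-encoded sum from resting cells of the same library was 0.070 in the WT library, 0.37 in that of 3′RR-*BCL2* and -0.044 in that of Igκ-*BCL2*. The mitochondrial sum in the same cells was 0.24 in 3′RR-*BCL2* and -0.26 in both WT and Igκ-*BCL2*. In activated MYC-high cells the mitochondrial sum differed by 0.017 in WT, against -0.040 for 3′RR-*BCL2* and -0.043 for Igκ-*BCL2*. In IFN-activated cells it differed by 0.091 in Igκ-*BCL2*, -0.12 in WT and -0.38 in 3′RR-*BCL2*. With 1 library per genotype, these differences between libraries were not tested.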

How the results depend on the processing

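Over the counts of members called and the summed ratios, 171 alternatives gave a count within 1.5 times the reported one or a ratio within its interval. By more than that, 34 counts were lower and 6 higher, and 10 ratios moved and 1 reversed. The number of all genes called also changed with these settings. The cause of each change was not tested, except that leaving out a library, thinning to another depth and limiting depth use fewer samples, cells or UMIs. In dividing GC cells the 66 members that rose became 37 in cells of 5000 to 10000 UMIs, and 1 fell with the looser cell filter. In non-dividing GC cells the 50 that rose became 27 to 46 when a library was left out and 25 in cells of 5000 to 10000 UMIs. The 2 that fell there became 0 to 1 without a library, 0 with classes at 1000 UMIs, and 1 with total UMIs, no filter, no library block, 1 more marker or cells of 5000 to 10000 UMIs. In activated MYC-high cells the 51 that rose became 24 to 37 without a library and 31 without the library block. The 1 that fell became 0 without a library, without the block or with classes at 4000 UMIs, and 2 with 1 more marker or in cells of 5000 to 10000 UMIs.

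In cells with at least 5 plasma cell markers the 43 that rose became 13 with total UMIs, 19 with no filter, 7 to 40 without a library, 20 without the block and 0 in cells of 5000 to 10000 UMIs. In transitional cells 1 rose with classes at 1000 UMIs and 1 in cells of 5000 to 10000 UMIs, in place of 0. In marginal zone cells the 4 that rose became 8 with the DESeq2 test, 0 to 2 without a library, 1 with classes at 4000 UMIs or 1 more marker, and 0 with total UMIs, no block, classes at 1000 UMIs or cells of 5000 to 10000 UMIs. The log2 ratio of summed members in non-dividing GC cells for 3′RR-*BCL2* over WT, -0.19, became -0.31 with classes at 1000 UMIs and reversed to 0.043 in cells of 5000 to 10000 UMIs. For Igκ-*BCL2*, -0.30 became -0.46 with classes at 1000 UMIs, -0.37 with 1 more marker, -0.11 in cells of 5000 to 10000 UMIs and -0.34 with totals without immunoglobulin, ribosomal protein and mitochondrial genes. In resting cells 0.057 for 3′RR-*BCL2* became 0.047 with classes at 1000 UMIs, 0.045 at 4000 and 0.048 in cells of 5000 to 10000 UMIs, and -0.029 for Igκ-*BCL2* became -0.015 with classes at 4000 UMIs and -0.054 with those totals.

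For members named by the rule, 321 values kept their call and 59 lost it. All 59 belong to *Sdhc* (9) and *Sdha* (3) in non-dividing GC cells, *Cox7a2l* (5) in activated cells, and members named for marginal zone cells and for cells with plasma cell markers. The stages were compared within libraries by the library block. Between genotypes no paired analysis was possible because each has 1 library. Igκ-*BCL2* and WT held only 14 to 25 dividing GC cells, so a member that did not pass there may still differ.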
